A study of Mus musculus with 77 samples.

Results

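The Nkx, Lhx, Dlx, Irx and Otx genes and the genes Six2 to Six6 are non-Hox homeobox genes that encode DNA-binding transcription factors. The list of 38 holds 11 Nkx, 8 Lhx, 6 Dlx, 6 Irx and 2 Otx genes and these 5, chosen by family name and not by any measured value, out of 34328 genes of the autosomes and X in the RefSeq table of GRCm38.p6 (mm10), of which 21631 are protein-coding and 12697 are long non-coding. All 38 had an entry in that table. Each gene was measured over its body and the 2 kb on either side.

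These factors pattern the embryo. NKX2-5 acts in the heart, NKX2-1 in thyroid and lung, NKX2-2 and NKX6-1 in the ventral neural tube and the pancreas, LHX3 and LHX4 in the pituitary and motor neurons, SIX2 in kidney progenitors, SIX3 and OTX2 in the eye and forebrain, DLX1 and DLX2 in forebrain interneurons and DLX5 and DLX6 in jaw and limb. In differentiated cells of other lineages such genes are textbook targets of the Polycomb complexes: PRC1 places ubiquitin on histone H2A (H2AK119Ub) and PRC2 methylates histone H3 (H3K27me3), and either complex can be recruited through the mark of the other. Unmethylated CpG-rich promoters are a known entry point for both. H3K27ac, on the residue that H3K27me3 occupies, marks active promoters and enhancers.

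CUT&RUN, in which an antibody guides a nuclease to the marked nucleosomes, was used for the 3 marks in CD23+ B cells from the spleen of female mice. Xist, the RNA that silences the inactive X chromosome, was targeted by Cre in 2 ways. In the mb1-cre system the B lineage of the mouse makes Cre, and the groups were Xist fl/fl with mb1-cre and WT with mb1-cre, each taken after 24 h with 1 µM CpG (a Toll-like receptor 9 ligand) or unstimulated (0 h). In the TAT-Cre system Xist fl/fl and WT cells were given 80 µg of recombinant TAT-Cre protein for 45 min and then 24 h of 1 µM CpG, while the 0 h cells of that system had received no Cre by the labels' protocol and are a baseline with the floxed allele in place. The 24 h effect of the TAT-Cre system therefore holds both the enzyme and CpG. No ages were given in the labels.

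There were 77 libraries in 24 groups of 3 to 5: 29 for H3K27me3, 24 for H2AK119Ub and 24 for H3K27ac. The H3K27me3 library of replicate 5 in the group mb1-cre Xist fl/fl 0 h carries a title that says naive and a treatment entry that says stimulated. It was kept at 0 h by its title, and its values are given apart where they matter. Replicates are biological by the labels, which do not tie them to separate animals, so each p-value speaks of the spread among these libraries. In bulk samples of this kind, a mark carried by fewer cells and a weaker mark in every cell cannot be told apart.

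Each library is a list of peaks. The lists held 3959 to 15040 peaks at 24 h and 1950 to 18954 at 0 h for H3K27me3, 9273 to 37118 and 1999 to 40486 for H2AK119Ub, and 3646 to 10125 and 1329 to 10304 for H3K27ac. Read depth was not given, so the number of peaks is the only measure of how deep a list goes. All 15 B cell marker genes, among them Pax5, had an H3K27ac peak and none had an H3K27me3 peak in every library of those marks. H3K27ac peaks touched 1 to 2 of 16 T cell markers at 24 h and 0 to 3 at 0 h, 0 to 3 and 0 to 2 of 16 myeloid markers, 2 to 3 and 0 to 3 of 10 erythroid markers, and 1 to 2 at both times of 15 markers of spleen stroma and endothelium.

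Promoter sequences are shown for 4 of the genes, because these genes carried different amounts of H2AK119Ub while all had H3K27me3. Each runs from 250 bases before to 50 bases after a RefSeq start, the most upstream one that the promoter table lists. Some of these starts lie inside the gene body and not at its 5′ end. Bases are in the 5′ to 3′ direction of the gene, and CG dinucleotides, the only motif searched, are in capitals. All 4 come from the RefSeq promoter table of GRCm38.p6, in which 27 of the 38 genes had an entry. Nkx2-4 (chr2:147085296-147085595, minus strand) had H2AK119Ub in all 24 libraries. Six2 (chr17:85688205-85688504, minus strand) had it in 12 of 12 libraries at 24 h and in 3 of 12 at 0 h. Irx3 (chr8:91801605-91801904, minus strand) had it in 12 of 12 at 24 h and in 0 of 12 at 0 h. Irx2 (chr13:72628570-72628869, plus strand) had it in 5 of 12 at 24 h and 0 of 12 at 0 h, although its H3K27me3 was found in 28 of 29 libraries. The Irx2 stretch lies inside the gene body, which begins at 72624430, while those of Nkx2-4, Six2 and Irx3 span the 5′ end.
Nkx2-4: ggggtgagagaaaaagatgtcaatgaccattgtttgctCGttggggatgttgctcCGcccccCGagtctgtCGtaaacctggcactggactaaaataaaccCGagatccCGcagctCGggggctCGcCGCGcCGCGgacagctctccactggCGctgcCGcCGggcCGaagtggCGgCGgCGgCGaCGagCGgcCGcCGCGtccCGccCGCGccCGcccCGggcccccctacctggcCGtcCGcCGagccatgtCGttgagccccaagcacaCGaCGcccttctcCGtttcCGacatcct
Six2: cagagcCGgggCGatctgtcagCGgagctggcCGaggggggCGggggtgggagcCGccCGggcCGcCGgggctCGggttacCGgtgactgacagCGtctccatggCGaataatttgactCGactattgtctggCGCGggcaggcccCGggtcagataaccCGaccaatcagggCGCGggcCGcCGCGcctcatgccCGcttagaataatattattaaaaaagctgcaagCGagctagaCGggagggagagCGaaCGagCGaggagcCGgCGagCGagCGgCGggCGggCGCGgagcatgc
Irx3: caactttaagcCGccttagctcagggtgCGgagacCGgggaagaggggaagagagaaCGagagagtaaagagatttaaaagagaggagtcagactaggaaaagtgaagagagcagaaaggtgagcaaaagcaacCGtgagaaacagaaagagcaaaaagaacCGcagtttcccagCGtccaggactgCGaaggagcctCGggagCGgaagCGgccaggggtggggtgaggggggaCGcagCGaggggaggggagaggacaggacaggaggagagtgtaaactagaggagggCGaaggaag
Irx2: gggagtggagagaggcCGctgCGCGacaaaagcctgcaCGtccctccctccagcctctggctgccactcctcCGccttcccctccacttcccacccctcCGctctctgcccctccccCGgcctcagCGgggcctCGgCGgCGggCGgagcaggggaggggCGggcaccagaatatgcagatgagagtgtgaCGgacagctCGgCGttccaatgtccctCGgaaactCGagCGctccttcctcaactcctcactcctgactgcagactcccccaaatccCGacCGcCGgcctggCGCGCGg

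The 4 stretches hold 38, 37, 14 and 25 CG dinucleotides in the order shown. The 27 promoters had a median of 17, against 14 over 17274 protein-coding promoters. At least 17 were held by 55.6% of the 27 and by 43.6% of protein-coding promoters. The cut of 17 is the median of the 27 themselves, so the 55.6% was largely set by that choice. The median share of G and C was 63.3% in the 27 and 56.3% in protein-coding promoters. A count of CG in these stretches did not sort the genes one by one. Lhx9, with 6, was covered by H2AK119Ub over 97.6% to 100% of its window in all 24 libraries. The Lhx9 stretch ends at 138842694, inside the gene body, whose upstream end is at 138848839, so its count does not describe that end. Among stretches that span the upstream end of the body, Nkx2-3, with 15, had an H2AK119Ub peak in all 12 libraries at 0 h. Nkx6-2, with 32, had one in 1 of 12. By H2AK119Ub at 0 h, the median was 19 for 13 genes with a peak in every 0 h library, 17.5 for 10 with one in some and 14.5 for 4 with one in none. The ranges of these classes overlapped (6 to 38, 4 to 40 and 6 to 25). Some of the 27 stretches lie inside the gene body, among them those of Lhx9, Nkx2-2, Lhx4, Nkx2-5 and Dlx1. The class medians thus rest partly on internal starts.

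H3K27me3 lay over nearly the whole list in resting and stimulated cells alike. A peak touched 36 to 38 of the 38 genes in each of 14 libraries at 24 h and 32 to 37 in each of 15 libraries at 0 h, and 32 genes had one in all 29. Over protein-coding genes the share with a peak was 8.90% to 35.01% per library, and 5.80% had one in all 29. The library with 32 was mb1-cre Xist fl/fl 0 h replicate 1, and the other 4 of its group had 36 or 37. The peaks were broad: those at the listed genes had a median width of 8.54 to 40.2 kb per library at 24 h and 10.9 to 46.3 kb at 0 h, against 4.66 to 10.5 kb and 3.72 to 20.9 kb for all peaks.

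The clearest exceptions, Irx6 and Irx1, were in the Irx family, whose members act in heart, neural and limb patterning. Irx6 had H3K27me3 in 1 of 29 libraries, TAT-Cre Xist fl/fl 24 h replicate 2, where 33.1% of its window was covered. Irx1 had it in 20 of 29, that is 11 of 14 at 24 h and 9 of 15 at 0 h. Nkx6-3 had it in 27, and Nkx2-9, Lhx8 and Irx2 in 28. Nkx2-9, Lhx8 and Irx2 lacked it in the same list only, the shortest one (mb1-cre Xist fl/fl 0 h replicate 1), and Nkx6-3 lacked it there and in TAT-Cre Xist fl/fl 0 h replicate 2.

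Per kb of window, the mean share of H3K27me3 peak signal over the 29 libraries was highest at Dlx1 (25.4 ppm per kb, where ppm is a share of the autosomal peak signal of a list), then Lhx9 (24.2), Dlx2 (21.8), Otx1 (20.4) and Lhx1 (19.8). It was lowest at Irx6 (0.163), Irx1 (4.59), Lhx8 (4.99) and Irx2 (7.51). Within each family the largest share of a whole window was at Dlx1, Irx4, Lhx4, Nkx2-2, Otx2 and Six2. For H2AK119Ub the order per kb began with Lhx9 (23.5), Dlx1 and Dlx2 (22.9 each), Lhx1 (21.3) and Nkx2-5 (20.1), and the family leaders by window were Dlx1, Irx5, Lhx9, Nkx2-5, Otx1 and Six5. Dlx1, Lhx9 and Lhx1 thus stood near the top for both marks. Across the 38 genes, the mean covered percent of the 2 marks had a Pearson r of 0.62 and a Spearman rho of 0.52 at 24 h, and 0.50 and 0.42 at 0 h, which describes genes that share libraries and list lengths.

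Neighbouring genes are not independent entries. Dlx1 and Dlx2 lie 9.43 kb apart and 1 peak spanned both in every library of both Polycomb marks. Dlx5 and Dlx6, 9.83 kb apart, shared 1 H3K27me3 peak in 13 of 14 libraries at 24 h and 15 of 15 at 0 h, but 1 H2AK119Ub peak in only 1 of 12 at 24 h and 0 of 12 at 0 h. Six2 and Six3, 36.5 kb apart on chromosome 17, never shared a peak of these marks.

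**Figure D1:**
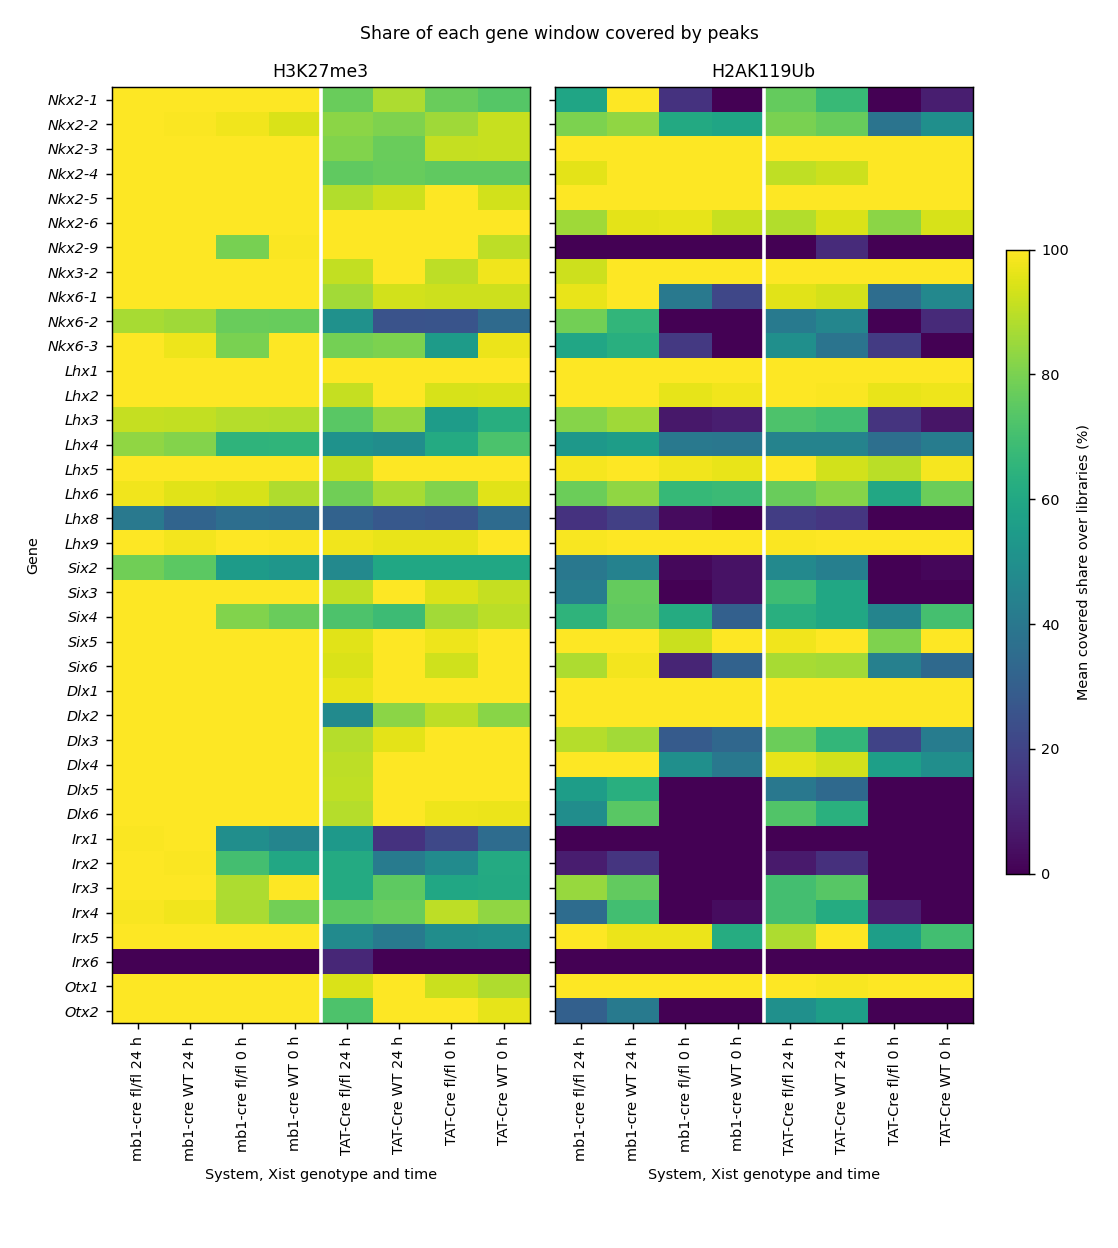
Percent of each gene's window (body ± 2 kb) inside a peak, as the mean over the libraries of a group. The 38 genes run down the page by family, and the panels are the 2 Polycomb marks. Within each system 24 h is left of 0 h and Xist fl/fl left of WT. Mean H3K27me3 cover over all libraries is 100% at Nkx2-6 and Lhx1, 61.2% at Six2, 33.6% at Lhx8 and 1.14% at Irx6. H2AK119Ub is fuller in the 24 h columns.

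H3K27ac was at 0 over these genes. A single peak, at Lhx9 (mm10 chr1:138825186-138848839), a gonad and neural factor, was found in 1 of 24 libraries, mb1-cre WT 24 h replicate 2, where it covered 19.9% of the window and held 38.01 ppm of the signal. The other 37 genes had none in any library, while peaks of this mark touched 12.7% to 34.5% of protein-coding genes per library at 24 h and 4.94% to 29.3% at 0 h. With a peak in fewer than 3 libraries, none of the 38 entered the test of this mark. Of 15 homeobox genes known to be transcribed in lymphocytes, such as Pou2f2 and Satb1, 8 to 13 had H3K27ac per library at 24 h and 3 to 12 at 0 h.

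H2AK119Ub was the mark that differed with stimulation. At 24 h a peak touched 33 to 36 of the 38 genes in each of 12 libraries, against 16 to 26 in each of 12 libraries at 0 h, so the 2 ranges did not overlap. It was found in all 12 libraries at 24 h for 30 genes and in all 12 at 0 h for 16 genes. Over protein-coding genes the same shares were 21.8% at 24 h and 6.38% at 0 h, so the mark was also wider over the genome at 24 h. List length moved with time, with ranges that overlapped. The shortest 24 h list, of 9273 peaks, touched 31.6% of protein-coding genes and 33 of the 38, and the longest 0 h list, of 40486 peaks, touched 53.0% and 26. When each list was reduced to its 9273 peaks of largest total signal, 31 to 34 of the 38 had a peak in the 12 lists at 24 h and 20 to 22 in the 8 lists of 0 h that are long enough. The share of protein-coding genes at that length is not given. In lists all trimmed to the shortest of the mark, the medians of the times lay closer together, as given in the last section. The part of list length in the difference was not tested.

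**Figure D2:**
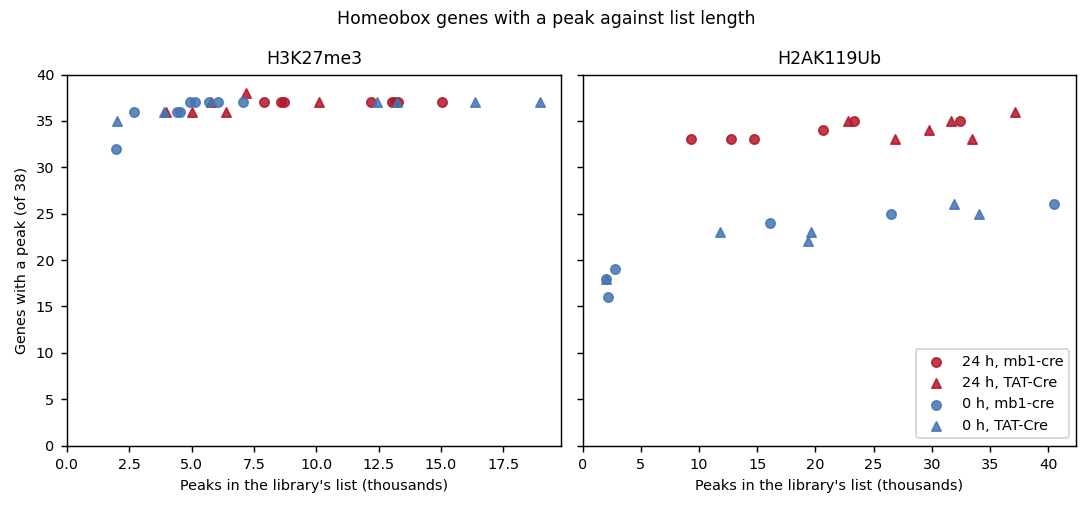
Number of the 38 genes with a peak (vertical axis) against the number of peaks in the list (horizontal axis), 1 point per library, by mark, time and system. For H2AK119Ub the 24 h libraries lie at 33 to 36 genes and the 0 h libraries at 16 to 26 at overlapping list lengths, while for H3K27me3 both times lie at 32 to 38.

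The 16 genes with H2AK119Ub in every 0 h library were Nkx2-2, Nkx2-3, Nkx2-4, Nkx2-5, Nkx2-6, Nkx3-2, Lhx1, Lhx2, Lhx4, Lhx5, Lhx6, Lhx9, Six5, Dlx1, Dlx2 and Otx1. Another 8, Dlx5, Dlx6, Irx1, Irx2, Irx3, Irx6, Nkx2-9 and Otx2, had it in no 0 h library, and the other 14 in 1 to 11 of 12. No Irx gene was in the first class and 4 of 6 were in the second. H3K27me3 at 0 h covered a median of 97.6% of the window in the first class, 84.3% in the middle class and 85.4% in the class with none, so the genes without H2AK119Ub at 0 h were mostly not without H3K27me3. Of the genes with H3K27me3 in every library of a group, H2AK119Ub was in every library of the matching group for 86.5% to 91.7% over the 4 groups at 24 h and for 44.4% to 60.0% over the 4 groups at 0 h. For protein-coding genes those shares were 58.2% to 88.9% and 42.7% to 72.4%.

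Around the starts of the 27 genes with a RefSeq promoter, the difference lay over the gene and its flanks close by. At 1.25 kb downstream of the start, 84.7% ± 5.46 (SD, n = 12 libraries) of the genes were inside an H2AK119Ub peak at 24 h and 51.9% ± 3.23 (n = 12) at 0 h. At 19.75 kb upstream the values were 20.4% at 24 h and 20.6% at 0 h. For H3K27me3, 0.75 kb upstream of the start, they were 95.6% ± 4.26 (n = 14) at 24 h and 93.1% ± 5.72 (n = 15) at 0 h.

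The neighbours Six2 and Six3 had clear gains in H2AK119Ub. At Six2 (mm10 chr17:85662736-85688254) mb1-cre Xist fl/fl cells had 111, 141 and 134 ppm at 24 h and 0, 11.1 and 0 ppm at 0 h, and mb1-cre WT cells had 111, 110 and 106 ppm at 24 h and 0, 16.8 and 0 ppm at 0 h. TAT-Cre Xist fl/fl cells had 102, 141 and 80.3 ppm at 24 h and 0 ppm in all 3 libraries at 0 h, and WT cells had 117, 95.5 and 92.5 ppm at 24 h and 0, 0 and 7.10 ppm at 0 h. Every 24 h library was thus above every 0 h library, in both genotypes and both systems. On the scale of log2(ppm + 10), which understates the change of low values, the 24 h effect was 3.26 ± 0.37 (SE; adjusted p = 5.12e-07) in mb1-cre cells and 3.37 ± 0.37 (adjusted p = 1.23e-06) in TAT-Cre cells (limma over all genes that had peaks in 3 or more libraries, Benjamini-Hochberg adjustment, both genotypes together).

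Six3 (mm10 chr17:85613608-85626191) had 27.2, 75.4 and 88.7 ppm at 24 h in mb1-cre Xist fl/fl cells and 72.3, 98.7 and 98.0 ppm in WT cells of that system at 24 h. TAT-Cre Xist fl/fl cells had 82.2, 73.5 and 90.2 ppm at 24 h and TAT-Cre WT cells 55.6, 67.4 and 95.3 ppm. At 0 h it was listed at 0 in 11 of 12 libraries and at 7.17 ppm in mb1-cre WT replicate 2. The limma effect was 2.90 ± 0.36 (adjusted p = 1.79e-06) in mb1-cre cells and 3.11 (adjusted p = 2.06e-06) in TAT-Cre cells. The mb1-cre call did not pass once every list was reduced to the length of the shortest H2AK119Ub list (adjusted p = 0.309), and by presence of a peak alone no gene passed after adjustment. The other 9 alternatives and all cases with 1 library left out kept the call.

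Irx3 and Dlx6 were listed at 0 in all 12 libraries at 0 h and had a peak in all 12 at 24 h. Irx3 (mm10 chr8:91798511-91801654) had 48.6, 53.9 and 64.0 ppm in mb1-cre Xist fl/fl, 19.1, 46.2 and 37.6 ppm in mb1-cre WT, 23.1, 56.3 and 32.1 ppm in TAT-Cre Xist fl/fl and 38.2, 29.1 and 40.6 ppm in TAT-Cre WT cells at 24 h. Dlx6 (mm10 chr6:6863334-6867970) had 52.6, 53.4 and 36.6 ppm in mb1-cre Xist fl/fl, 47.9, 55.2 and 24.4 ppm in mb1-cre WT, 56.9, 36.7 and 52.3 ppm in TAT-Cre Xist fl/fl and 38.9, 60.7 and 23.8 ppm in TAT-Cre WT cells at 24 h. With 0 h at 0, no fold is given. Both genes passed the filter of 3 libraries through the 24 h libraries alone and so could only be called higher. With that limit, the limma adjusted p was 1.04e-05 for Irx3 and 1.12e-05 for Dlx6 in mb1-cre cells, and 6.85e-05 and 2.62e-05 in TAT-Cre cells. Both kept their calls in the 9 alternatives of the limma fit that gave a value and with any 1 library left out. In lists trimmed to the shortest they were not tested, and by presence of a peak alone no gene passed after adjustment.

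**Figure D3:**
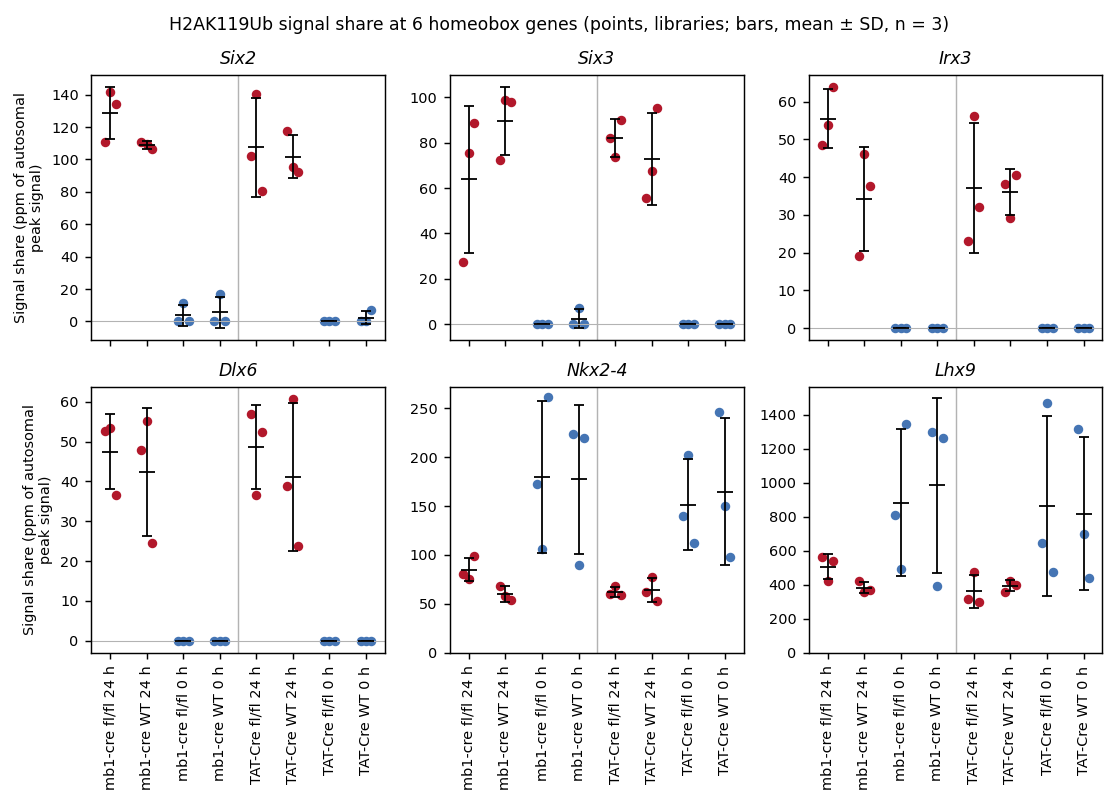
H2AK119Ub signal share (vertical axis, ppm of the list's autosomal peak signal) of Six2, Six3, Irx3, Dlx6, Nkx2-4 and Lhx9 in every library, by system, time and genotype. Points are libraries and bars are mean ± SD (n = 3): the first 4 genes are at or near 0 at 0 h and at 19.1 to 141 ppm at 24 h, while Nkx2-4 and Lhx9 have a peak in all 24 libraries.

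Of the 38 genes, 35 had an H2AK119Ub peak in at least 3 libraries and were tested; Irx1, Irx6 and Nkx2-9 were not. Of the 35, Dlx5, Dlx6, Irx2, Irx3 and Otx2 had a peak at 24 h alone and so could only be higher there. In the mb1-cre system 16 of the 35 were higher and 6 lower at 24 h than at 0 h (limma, adjusted p under 0.05), where 26.7% of all 20695 genes tested were higher and 4.13% lower. For TAT-Cre cells 13 were higher and 7 lower, with 22.3% and 3.39% of all genes. The median effect was 0.67 for the 35 and 0.47 for all genes in mb1-cre cells, and 0.60 and 0.51 in TAT-Cre cells. All 13 genes higher in TAT-Cre cells (100% of them) were among the 16 of mb1-cre cells (81.2% of those): Dlx3, Dlx5, Dlx6, Irx3, Irx4, Lhx3, Lhx8, Nkx2-1, Nkx6-1, Nkx6-2, Otx2, Six2 and Six3. Dlx4, Nkx6-3 and Six6 passed in mb1-cre cells and not in TAT-Cre cells.

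The test of the difference between the systems called 0 of the 35 genes (limma; 1 at an unadjusted p under 0.05) and 0% of all genes in either direction. Lhx3, the pituitary and motor neuron factor, had an effect of 2.90 ± 0.40 (adjusted p = 7.39e-06) in mb1-cre cells and 2.44 (adjusted p = 0.000124) in TAT-Cre cells, and its 12 libraries at 24 h, at 55.2 to 138 ppm, were all above the 12 at 0 h, at 0 to 19.9 ppm. The TAT-Cre call did not pass in lists of the shortest length (adjusted p = 0.223). Irx4, a ventricle factor, had effects of 2.61 ± 0.41 (adjusted p = 3.56e-05) and 2.64 (adjusted p = 6.76e-05). Otx2, listed at 0 in all 12 libraries at 0 h, had a peak in 11 of 12 at 24 h, with 0 to 94.3 ppm and a median of 45.7 ppm. Over both systems together, the 24 h and 0 h libraries did not overlap for 7 of the 35 genes in the higher direction, against 3.8% of all genes, and for 0 in the lower direction, against 1.11%. The 7 were Nkx6-1, Lhx3, Six2, Six3, Six6, Dlx6 and Irx3, of which Dlx6 and Irx3 had no peak at 0 h and could only be higher. By covered percent the count was also 7 higher, with Irx4 in place of Six6, against 1.74% of all genes, and 0 lower, against 0.126%. By an exact test of presence alone, stratified by genotype, 0 genes passed after adjustment and 9 of 17 in mb1-cre cells and 10 of 17 in TAT-Cre cells had an unadjusted p under 0.05, against 6.51% and 9.92% of all genes. Of these 17, Dlx5, Dlx6, Irx2, Irx3 and Otx2 had no peak at 0 h and could only come out higher, which limits the comparison with all genes.

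**Figure D4:**
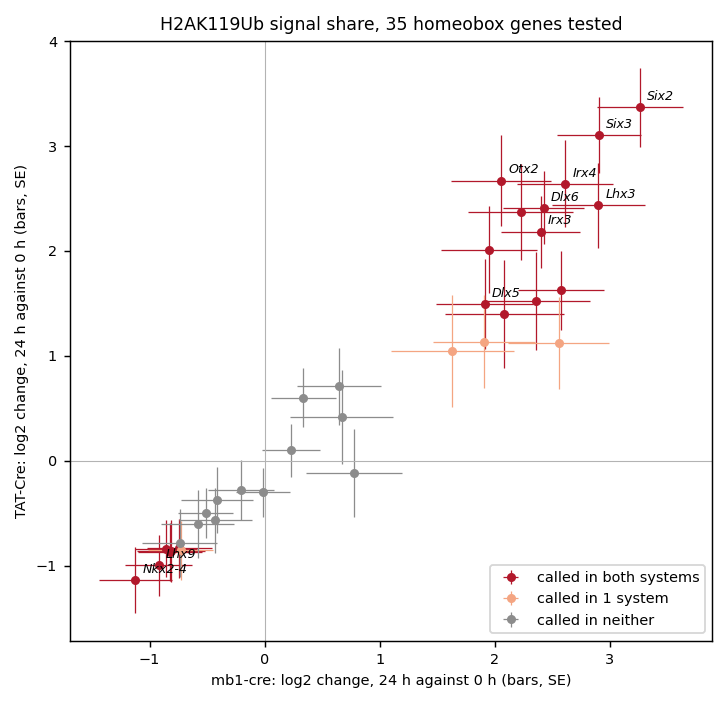
H2AK119Ub effect of 24 h against 0 h, as log2(ppm + 10) from limma, in TAT-Cre cells (vertical axis) and mb1-cre cells (horizontal axis), for the 35 genes tested. Six2 and Six3 lie highest in TAT-Cre cells (3.37 and 3.11), and Nkx2-4 lies lowest in both (-1.14 in TAT-Cre and -1.12 in mb1-cre).

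The genes lower at 24 h were all genes with H2AK119Ub in every library. In both systems Dlx1, Dlx2, Lhx9, Nkx2-4, Nkx2-5 and Otx1 were called lower, and Lhx1 in TAT-Cre cells as well. At Nkx2-4 (mm10 chr2:147083337-147085439), a homeobox gene close in sequence to Nkx2-1, mb1-cre Xist fl/fl cells had 80.6, 75.8 and 98.5 ppm at 24 h and 173, 106 and 261 ppm at 0 h, and mb1-cre WT cells 68.7, 58.0 and 53.7 ppm at 24 h and 224, 89.7 and 219 ppm at 0 h. TAT-Cre Xist fl/fl cells had 60.0, 68.3 and 59.0 ppm at 24 h and 139, 202 and 112 ppm at 0 h, and WT cells 62.0, 77.2 and 53.3 ppm at 24 h and 246, 150 and 98.3 ppm at 0 h. The ranges within each group of a system and genotype did not overlap between times. The effect was -1.12 ± 0.32 (limma, adjusted p = 0.00787) in mb1-cre cells and -1.14 (adjusted p = 0.0100) in TAT-Cre cells.

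Lhx9 showed more spread. The mb1-cre Xist fl/fl libraries had 562, 421 and 538 ppm at 24 h and 810, 491 and 1346 ppm at 0 h, and mb1-cre WT libraries 420, 356 and 372 ppm at 24 h and 1301, 391 and 1265 ppm at 0 h. The share was 315, 475 and 298 ppm in TAT-Cre Xist fl/fl cells at 24 h and 648, 1469 and 477 ppm at 0 h, and 358, 423 and 400 ppm in TAT-Cre WT cells at 24 h and 1317, 700 and 440 ppm at 0 h. The highest 24 h library, at 562 ppm, was above the lowest 0 h libraries, so the times overlapped. The effect was -0.92 ± 0.29 (limma, adjusted p = 0.0163) in mb1-cre cells and -0.998 (adjusted p = 0.0131) in TAT-Cre cells.

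These falls are falls in a share of peak signal, and the covered percent of the windows did not fall with them by test, although it cannot show a change beyond a window that is full. Dlx1, Dlx2, Nkx2-3, Nkx2-5 and Lhx1 were covered over 100% of their windows in all 24 libraries. Median widths of the H2AK119Ub peaks at the 38 genes were 5.74 to 17.5 kb per library at 24 h and 5.62 to 35.6 kb at 0 h, and the extent beyond the windows was not tested. Tested as covered percent, 17 genes were higher at 24 h in mb1-cre cells, where 18.3% of all genes were higher and 1.02% lower, and 14 in TAT-Cre cells (15.8% and 0.691%), and 0 were lower in either (limma). The difference between systems in covered percent called 0 of 35 (0.0435% of all genes higher, 0.00966% lower). The share also moved with list length: the 4 lists at 0 h with fewer than 9273 peaks had 219 to 261 ppm at Nkx2-4 and 1265 to 1346 ppm at Lhx9, and the other 8 had 89.7 to 202 ppm and 391 to 1469 ppm. In lists of equal length, all at 9273 peaks with the 4 shorter ones left out, 1 gene was lower in each system, and 11 in mb1-cre cells and 17 in TAT-Cre cells were higher. Counts at equal length or with a library left out are given without the share of all genes called. They therefore do not set these genes apart from the genome. In lists reduced to the length of the shortest H2AK119Ub list, Nkx2-4 alone of these genes kept a lower call, in TAT-Cre cells and not in mb1-cre cells (limma). Nkx2-4 kept its call in both systems when any 1 library was left out. With the 4 lists under 9273 peaks left out together and no trimming, its call held in TAT-Cre cells and not in mb1-cre cells. Lhx9 lost it without replicate 1 or 3 of mb1-cre WT 0 h or replicate 3 of mb1-cre Xist fl/fl 0 h (largest adjusted p = 0.0668), and without replicate 1 of TAT-Cre WT 0 h or replicate 2 of TAT-Cre Xist fl/fl 0 h (largest adjusted p = 0.0574). The calls of Dlx1, Dlx2, Nkx2-5, Otx1 and Lhx1 were each lost for 2 to 16 of the 24 libraries left out in turn, replicate 1 of the WT 0 h group of the same system among them in every case. Without that library of the TAT-Cre system, 12 genes were higher and 1 lower there.

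H3K27me3 differed less with stimulation, and not alike in the 2 systems. In the mb1-cre system 0 of 37 genes tested were higher and 6 lower at 24 h (limma), with 25.4% of all 11663 genes tested higher and 4.36% lower. The 6 were Nkx2-4, Lhx9, Lhx2, Nkx2-5, Nkx3-2 and Nkx2-3, with effects of -0.77 to -0.52, and the median was -0.34 for the 37 and 0.38 for all genes. In the TAT-Cre system 0 of 37 were called in either direction (limma; 3 higher and 0 lower at an unadjusted p under 0.05), with 0% of all genes higher and 0.12% lower, and the median was 0.41 for the 37 and -0.03 for all genes. The difference between systems, TAT-Cre minus mb1-cre, was positive for 8 of 37, against 4.56% of all genes, and negative for 0, against 17.2%.

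Nkx2-4 shows the difference. TAT-Cre libraries had 118, 100 and 107 ppm of H3K27me3 in Xist fl/fl cells at 24 h and 63.9, 149 and 83.1 ppm at 0 h, and 96.7, 145 and 118.9 ppm in WT cells at 24 h and 96.5, 72.7 and 67.7 ppm at 0 h. The mb1-cre libraries had 68.3, 55.3, 63.5 and 69.9 ppm in Xist fl/fl cells at 24 h and 162, 109, 115, 125 and 75.0 ppm at 0 h, and 53.3, 66.1, 73.1 and 62.5 ppm in WT cells at 24 h and 106, 143, 117 and 110 ppm at 0 h. The 24 h values were below the 0 h values throughout the mb1-cre system, while in TAT-Cre cells they overlapped in Xist fl/fl cells and were above the 0 h values in WT cells, the closest at 96.7 ppm and 96.5 ppm. The 75.0 ppm belong to replicate 5, whose labels disagree, and which also had 269 ppm at Lhx9 against 648 to 951 ppm in the other 4 libraries of its group. The difference of effects was 1.15 ± 0.30 (limma, adjusted p = 0.0101) at Nkx2-4 and 1.17 ± 0.33 (adjusted p = 0.0155) at Lhx3.

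These counts rested on single libraries. The counts below are given without the share of all genes called in each setting, so they do not set these genes apart from the genome. The 6 lower genes of mb1-cre cells were 17 without replicate 5 and 12 without TAT-Cre Xist fl/fl 0 h replicate 2, 3 without mb1-cre Xist fl/fl 0 h replicate 1, and 2 without mb1-cre WT 0 h replicate 2, mb1-cre WT 24 h replicate 1 or 4, or mb1-cre Xist fl/fl 24 h replicate 2. The 8 genes that differed between systems were 27 without TAT-Cre Xist fl/fl 0 h replicate 2, which also gave 2 higher genes in TAT-Cre cells, and 19 without replicate 5. They were 5 without mb1-cre WT 0 h replicate 2, mb1-cre WT 24 h replicate 4 or TAT-Cre WT 0 h replicate 2, 4 without mb1-cre WT 24 h replicate 1, 3 without TAT-Cre WT 0 h replicate 3, TAT-Cre Xist fl/fl 0 h replicate 1 or TAT-Cre Xist fl/fl 24 h replicate 3, and 2 without TAT-Cre WT 24 h replicate 2 or TAT-Cre Xist fl/fl 0 h replicate 3. Nkx2-4 and Lhx9 in mb1-cre cells, and Nkx2-4 and Lhx3 in the difference between systems, kept their calls in all 29 cases. In lists of equal length, all at 3959 peaks with the 4 shorter ones left out, 3 genes were higher and 0 lower in mb1-cre cells and 0 differed between systems (limma).

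As covered percent, H3K27me3 in mb1-cre cells was higher at 24 h for 5 genes (limma; 30.9% of all genes) and lower for 0 (0.24%). Irx1 (mm10 chr13:71958232-71963723) rose most in this measure: 97.4% to 100% of its window was covered in the 8 libraries at 24 h, and 0% to 100%, with a peak in 5 of 9 libraries, at 0 h, an effect of 52.1 ± 16.9 percentage points (adjusted p = 0.0231). The other 4 were Irx2 at 34.7 ± 11.9 points (adjusted p = 0.0304), Six2 at 22.9 ± 5.42 points (adjusted p = 0.00315), Six4 and Lhx4. The H3K27me3 lists of mb1-cre cells held 7919 to 15040 peaks at 24 h and 1950 to 7073 at 0 h, without overlap. The part of list length in these rises of covered percent was not tested. In the TAT-Cre system Irx1 had a peak in 3 of 6 libraries at 24 h and 4 of 6 at 0 h. The difference between systems in covered percent, TAT-Cre minus mb1-cre, was negative for 6 of 37 genes and positive for 0 (limma; 19.9% and 0.0514% of all genes).

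The extent of H3K27me3 at 2 genes differed between systems at both times. At Nkx2-4, 74.6% to 76.8% of the window was covered in the 12 TAT-Cre libraries and 100% in the 17 mb1-cre libraries. At Irx5 the values were 34.6% to 70.6% in the TAT-Cre libraries and 100% in all mb1-cre libraries. Such a gap, with TAT-Cre lower, was found for 2 of 37 genes and 0.334% of all genes, and with TAT-Cre higher for 0 genes and 0% of all genes. The systems differ in how Cre was given and at 0 h only one carried Cre, and any other difference between the 2 sets of libraries cannot be told apart from these.

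The genotypes were compared over the 3 conditions with Cre (mb1-cre at 0 h and 24 h, TAT-Cre at 24 h), and all of these homeobox genes lie on autosomes. In signal share of H3K27me3 the count called was 0 of 37 (limma; 1 at an unadjusted p under 0.05, Dlx2 at 0.0232 with an adjusted p of 0.728), with 0.00857% of all genes higher and 0.0257% lower. For H2AK119Ub 0 of 35 were called (limma; 0 at an unadjusted p under 0.05), with 0.00966% of all genes higher and 0.43% lower. The effects of single genes lay between -0.45 and 0.55 for H3K27me3 and between -0.22 and 0.64 for H2AK119Ub on the log2 scale. The medians were -0.15 for the 37 and 0.05 for all genes in H3K27me3, and 0.11 for the 35 and -0.01 for all genes in H2AK119Ub. At these numbers of libraries a p above the threshold does not show that the genotypes were alike.

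One gene passed in covered percent. Otx2, the forebrain and eye factor, had H3K27me3 over 68.6%, 63.5% and 84.5% of its window in TAT-Cre Xist fl/fl cells at 24 h and over 100% in all 3 TAT-Cre WT libraries at 24 h. In the mb1-cre system it was at 100% in all libraries of both genotypes at both times, and in the TAT-Cre baseline at 100% in the 3 Xist fl/fl libraries and 89.0% to 100% in the 3 WT libraries. The difference was therefore found in 1 of the 3 conditions with Cre. Over the 3 conditions the effect was -9.26 ± 1.64 percentage points (limma, adjusted p = 0.0203), where 0.0257% of all genes were higher and 0.0514% lower. The effect of 24 h in TAT-Cre cells was also called lower at Otx2 alone, by -12.0 percentage points (adjusted p = 0.0373), with 0.0772% of all genes lower and 0% higher. Both p-values rest on a spread pooled over all groups, most of which sat at 100% without spread. They do not measure the spread of the Xist fl/fl group at 24 h alone. Covered percent of H2AK119Ub gave 0 of 35 genotype calls (limma), with 0.029% of all genes higher and 0.411% lower.

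Other gene lists were counted in the same way, and their difference from the rest of the genome was not tested. Of 67 other non-Hox homeobox genes, H2AK119Ub touched 55 to 62 per library at 24 h and 27 to 52 at 0 h. In the mb1-cre system 21 of 63 tested were higher and 7 lower at 24 h, with a median of 0.71, and in TAT-Cre cells 20 were higher and 9 lower, with a median of 0.42 (limma), where 26.7% and 22.3% of all genes were higher and 4.13% and 3.39% lower in the mb1-cre and TAT-Cre systems. For H3K27me3 in mb1-cre cells 3 of 66 were higher and 16 lower, with 25.4% and 4.36% of all genes. Msx1 and Gsc had H2AK119Ub in 10 and 11 of 12 libraries at 24 h and in 0 of 12 at 0 h. Genes of the B cell itself were also called: of 13 B cell markers tested 9 were higher in H2AK119Ub at 24 h in each system, and a peak of that mark touched 6 to 13 of 15 at 24 h and 0 to 6 at 0 h. Of the lymphocyte homeobox genes, 3 of 14 were higher and 1 lower in each system. The higher calls in the mb1-cre and TAT-Cre systems were 5 and 4 of 12 T cell markers, 6 and 4 of 14 myeloid markers, 4 and 1 of 9 erythroid markers, 4 and 6 of 11 stroma markers and 3 and 1 of 11 housekeeping genes, and lower calls were 0 to 2 in each of these lists. Whether a change in cell types has a part in the gains at the homeobox genes was not tested.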

How the data were processed

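CUT&RUN libraries of H3K27me3, H2AK119Ub and H3K27ac from splenic CD23+ B cells were analysed as deposited peak lists, 1 per library. Per the submitters' processing notes, the authors used Trimmomatic 0.32, Bowtie2 2.3.4.1, Picard and deepTools 3.5.1 with the mm10 build. SEACR, in its norm and relaxed modes, is named in the lists' titles, while its version, its control and whether the yeast spike-in set the scale were not given in the sources used here. Each deposited peak has a value in units of signal, a sum of coverage, which no label says can be compared from list to list.

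Signal was therefore expressed in ppm of the autosomal peak signal of the same list, spread evenly over each peak and summed over a gene's body ± 2 kb. A share is compositional: it falls where other peaks gain. A gene had a peak where at least 1 bp overlapped. Groups were fitted in limma 3.58.1 (R 4.3.3) on log2(ppm + 10), as group means over all libraries of a mark with a trended prior, over genes that had peaks in 3 or more libraries, with Benjamini-Hochberg adjustment over all of them and a threshold of 0.05. The stimulation effects average both genotypes, and the genotype effect averages 3 conditions with Cre. Tables were handled with Python 3.11.15, numpy 2.4.6 and pandas 2.3.3, plots with matplotlib 3.10.9, and the fit was tested on simulated data. Of genes given a log2 shift of 1 in mb1-cre cells at 24 h, the fit recovered 11% for H2AK119Ub and 36% for H3K27me3. At a shift of 2 the fit recovered 71% and 83%. The precision is limited by 3 to 5 libraries per group.

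The genes, the comparison lists and the alternatives were chosen with earlier results of these data known. Genes named with values are the leaders of each family in each mark, up to 5 per direction and comparison with the smallest adjusted p under 0.05, and up to 5 with the fewest peaks per mark; Six6, Lhx5, Otx1, Otx2 and Irx5 beyond these were named after their values were seen, as were Nkx6-1 and the covered-percent calls. The alternatives were pseudocounts of 1 and 100 ppm, no filter, lists trimmed to the shortest list, the upper 50% of each list, covered percent, gene bodies without flanks, presence of a peak, a replicate block, replicate 5 at 24 h and each library left out. After seeing the list lengths, lists without the short ones and lists of the length of the shortest 24 h list were added. Deviations of same-numbered libraries had median correlations of -0.02 to 0.02 for the 2 Polycomb marks, with single pairs from -0.37 to 0.56. Pairs of unlike number ran from -0.63 to 0.50. Pairing by number was thus neither shown nor excluded, and the main fit did not use it.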

Additional observations from a re-analysis of the deposited data

Results flagged for a closer look

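In 74 sets of 4 or 5 libraries examined, 3 had a library far from the others of its group, and chance gives about 1 in 20. Replicate 1 of mb1-cre Xist fl/fl 0 h had an H3K27me3 peak at 32 of the 38 genes, against 36 to 37 in the other 4 libraries. In the same library Nkx3-2 held 217 ppm of the H3K27me3 signal, against 74.7 to 109 ppm. In mb1-cre WT cells at 0 h, replicate 2 held 229 ppm at Nkx2-5, against 193 to 195 ppm.

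The 24 h effect on H3K27me3 differed between the TAT-Cre and mb1-cre systems at 8 genes by the test of the difference (limma, adjusted p under 0.05). TAT-Cre minus mb1-cre was 1.15 at Nkx2-4, 1.17 at Lhx3, 1.03 at Nkx3-2, 0.88 at Lhx2 and 0.86 at Nkx2-5, and 1.01 at Lhx5, 0.91 at Otx1 and 0.88 at Lhx9, on the log2(ppm + 10) scale. The median over all genes was -0.48. The part of list length in these differences was not tested directly, and 0 of the 8 were called in lists of equal length.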

How the results depend on the processing

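Read depth is unknown, replicates are 3 to 5, and signal is a share. Counts of genes called follow, and except for presence they stand without the share of all genes called in that setting. H3K27me3, genotype: 1 with covered percent, and 0 for every library left out. H3K27me3 at 24 h in the mb1-cre system, 6 lower: 1 (higher) in lists trimmed to the shortest, 5 (higher) with covered percent, 3 (higher) at equal length, 13 in the upper 50% of lists, 0 by presence, 20 with replicate 5 at 24 h, and 2 to 17 with a library left out. TAT-Cre system, 0: 1 with covered percent or at equal length, 14 higher without the short lists, and 0 to 2 with a library left out. Difference between systems, 8 higher: 0 in trimmed lists or at equal length, 6 (lower) with covered percent, 25 with replicate 5 at 24 h, 31 without the short lists, and 2 to 27 with a library left out. Lhx9 and Nkx2-5 turned in sign there with covered percent (-0.39 and -6.17 percentage points).

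H2AK119Ub at 24 h, mb1-cre system, 22 called: 10 in trimmed lists, 12 at equal length, 0 by presence, and 16 to 26 with a library left out. TAT-Cre system, 20: 8 in trimmed lists, 0 by presence, and 13 to 23. Genotype and the difference between systems were 0 for every library left out. By presence, 9 and 10 of 17 genes had an unadjusted p under 0.05, against 6.51% and 9.92% of all genes. Some of the 17 had no peak at 0 h and could only come out higher. Fewer genes were tested in trimmed lists. The cause of the other changes was not tested. The median number of genes with an H3K27me3 peak, 37 at both times, was 35.5 at 24 h and 33 at 0 h in trimmed lists and 35 at 0 h in the upper 50%. For H2AK119Ub, 34 at 24 h and 23 at 0 h, it was 23 and 18 in trimmed lists and 32 at 24 h in the upper 50%. With the replicate block, which rests on numbers alone, 15 genes were lower in the mb1-cre system and 21 differed between systems for H3K27me3, and 23 and 20 genes were called for H2AK119Ub in the mb1-cre and TAT-Cre systems. H3K27ac gave no test for these genes.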
